A study of Homo sapiens with 16 samples.

Results

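MDA-MB-231 CRISPR control cells, left untreated or treated with TWEAK, were compared through their lists of H3K27ac peaks, 2 lists per treatment and 4 of the 16 lists of the series. Merging the 4 lists wherever peaks shared at least 1 bp gave 51153 regions. Gained regions are those that only the TWEAK lists cover, with a peak in each of the 2 and none in either untreated list, and lost regions are the opposite. By this rule 3155 regions were gained (6.17%) and 2609 were lost (5.10%). A further 33246 regions, called retained, had a peak in all 4 lists, and the other 12143 had any other combination of lists. MDA-MB-231 is an established human triple-negative breast cancer line. After 8 h of starvation in serum-reduced medium the cells received either nothing or the cytokine TWEAK at 10 ng/ml for 48 h, renewed at 24 h. Fn14 KO cells of the same line, in which the TWEAK receptor was deleted with CRISPR, and control cells of Hs578T, a further triple-negative line, went through the same 2 treatments with 2 lists each and are used here only for comparison.

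TWEAK is a ligand of the TNF superfamily, and Fn14, encoded by TNFRSF12A, is its receptor. Fn14 recruits TRAF adaptors and the ubiquitin ligases BIRC2 and BIRC3, which leads to canonical and alternative NF-κB signalling and to JNK and AP-1 activity. H3K27ac is the acetyl mark of lysine 27 on histone H3 at active promoters and enhancers, so a peak that appears or grows marks a regulatory element with more of this modification.

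The control lists held 40603 and 44585 peaks without and 42392 and 43116 with TWEAK. Peak lists hold no reads. Depth is therefore unknown and counting intervals cannot be given. The value used throughout is the fold enrichment, the height of the highest peak in a region over its local background as given by the authors' peak caller. Replicates resembled each other more than they resembled the other treatment: over the retained regions Pearson's r of log2 fold enrichment was 0.973 for the untreated pair, 0.980 for the TWEAK pair and 0.854 to 0.876 between treatments, a description across regions that share their lists. Of breast cancer subtype markers, 9 of 10 mesenchymal breast cancer markers had a peak within 2 kb of a start site in all 4 lists, as did 7 of 12 luminal markers, among them GATA3, KRT8 and KRT18, and 3 of 10 basal markers (TP63, FOXC1 and SOX9). No list had such a peak at 3 of the luminal markers, ESR1 and PGR included, or at 6 of the basal markers, KRT5 and KRT14 included. Peak lists cannot check a cell line's label. Over the 29616 regions with a peak in all 12 lists used, the MDA-MB-231 control lists with TWEAK correlated at 0.888 to 0.906 with the TWEAK lists labelled Hs578T, above the 0.845 to 0.859 between untreated and TWEAK lists within Hs578T. The same 2 lines differed in peaks on unplaced or alternate contigs, with 93 to 145 per MDA-MB-231 list and 34 to 40 per Hs578T list.

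Most of the 10 leading regions of each kind lay away from start sites. Over their whole length, all 10 that rose most and 8 of the 10 leading gained regions held a sequence that matches the NF-κB motif. In the 500 bp at the middle, 3 and 7 of them did, against 14.2% of all regions. Over the whole length the same regions held the AP-1 motif TGANTCA in 8 and 7 cases and the TEAD motif GGAATG in 10 and 9. No whole-length share was computed for all regions, which held 0.320 NF-κB matches per kb. The 10 that rose most held 24 such matches in 33973 bp, and the 10 leading gained regions 22 in 24455 bp. The stretches below are hg38 reference sequence, with 25 bases on either side of the NF-κB match nearest to the middle of the region, and the match is in capitals. They are shown because they lie in the retained regions that rose most or in the gained regions with the highest fold enrichment. A match describes the letters and is not evidence of binding.
SELPLG region, chr12:108616978-108617037, + strand: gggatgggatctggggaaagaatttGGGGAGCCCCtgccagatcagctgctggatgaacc
GPR107 region, chr9:130073039-130073098, - strand: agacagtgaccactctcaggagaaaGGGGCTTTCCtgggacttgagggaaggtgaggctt
ARNT2 region, chr15:80419764-80419823, + strand: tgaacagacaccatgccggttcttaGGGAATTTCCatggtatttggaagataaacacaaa
IFNAR2 region, chr21:33204325-33204384, + strand: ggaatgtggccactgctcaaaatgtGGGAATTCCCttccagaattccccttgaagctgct
TNFSF10 region, chr3:172607404-172607463, + strand: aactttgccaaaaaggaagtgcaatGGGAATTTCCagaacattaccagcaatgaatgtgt
KCNIP4 region, chr4:22187671-22187730, + strand: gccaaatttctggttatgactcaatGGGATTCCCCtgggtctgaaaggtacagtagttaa
PLXNA1 region, chr3:126932407-126932466, - strand: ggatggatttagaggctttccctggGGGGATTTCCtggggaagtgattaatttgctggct
DENND2D region, chr1:111192940-111192999, - strand: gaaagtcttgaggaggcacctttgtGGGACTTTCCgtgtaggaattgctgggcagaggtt
SEMA4A region, chr1:156165241-156165300, - strand: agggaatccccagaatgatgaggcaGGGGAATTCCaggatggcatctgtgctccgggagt

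For 3 of the 10 leading lost regions the AP-1 match nearest to the middle is given in the same way, with the match to TGANTCA in capitals. None of the 3 held an NF-κB match. The same was true of the leading lost regions near NPBWR1, GNRH1 and IFT122, which also held an AP-1 match and are not shown. An AP-1 match was not particular to lost regions. Over the whole length 6 of the 10 leading lost regions held one, as did 7 of the 10 leading gained regions and 8 of the 10 that rose most. The KCNIP4 stretch above also holds TGACTCA.
SPARC region, chr5:151694199-151694255, + strand: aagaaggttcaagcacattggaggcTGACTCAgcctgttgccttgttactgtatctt
C20orf85 region, chr20:58102861-58102917, + strand: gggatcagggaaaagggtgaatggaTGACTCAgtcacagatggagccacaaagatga
GLI2 region, chr2:120559672-120559728, + strand: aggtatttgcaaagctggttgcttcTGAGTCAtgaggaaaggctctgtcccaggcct

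To find how the signal changed where both treatments had a peak, log2 fold enrichment at the 33246 retained regions was compared with limma, each list centred on its median. With TWEAK 5857 regions rose (17.6%) and 5942 fell (17.9%) at an adjusted p below 0.05. The retained regions had a median of 2.79 on the log2 scale in the untreated and 2.87 in the TWEAK lists, a shift of 0.08 that centring removes. Without centring, 6987 regions rose and 3871 fell, so that rises made up 64.3% of the calls in place of 49.6%. Rises reached further than falls. The median size was 0.57 log2 for rises and 0.54 for falls, but 819 rises and 444 falls were of at least 1 log2 unit, and 64 rises and 1 fall were of at least 2.

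The region that rose most lay between genes, 5.88 kb from the start of SELPLG, which encodes the ligand of P-selectin (chr12:108615902-108618445). Its fold enrichment was 4.27 and 4.74 in the untreated lists and 52.9 and 52.8 in the TWEAK lists, a log2 difference of 3.47 ± 0.09 (SE, limma, adjusted p = 1.1e-08). The treatments were far apart and the replicates close together. In a GPR107 intron, within the gene of a Golgi-associated membrane protein, the values were 5.35 and 7.31 untreated and 50.6 and 47.7 with TWEAK, a log2 difference of 2.89 ± 0.11 (limma, adjusted p = 1.2e-07). Within ARNT2, which encodes a bHLH-PAS transcription factor, a region went from 3.60 and 3.35 to 26.5 and 27.2, with a log2 difference of 2.87 ± 0.12.

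The region 0.117 kb from a start of IFNAR2, a subunit of the type I interferon receptor, was the 1 start-site region among the 10 that rose most. It measured 3.65 and 3.63 untreated and 28.6 and 25.1 with TWEAK, a log2 difference of 2.80 ± 0.12. A region 81.7 kb from TNFSF10, which encodes the death ligand TRAIL, rose from 3.85 and 4.26 to 28.2 and 27.3. The other members of the 10 were nearest to ASB7, a SOCS-box ubiquitin ligase adaptor, to TBX2, a T-box repressor, to ASH1L, a histone methyltransferase, and to ZC3H7B and RFX8, and their log2 differences ranged from 2.56 to 2.81. Since the 10 were chosen for the size of their change, the lack of overlap between their treatments follows from that choice. Each kept its call in every alternative setting in which it could be tested. With only peaks of a −log10 q of at least 2, 18 of the 20 regions that rose or fell most could be tested.

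The region that fell most lay 35.0 kb from PLEKHG6, which encodes a guanine nucleotide exchange factor. It measured 18.9 and 19.7 untreated and 4.60 and 4.36 with TWEAK, a log2 difference of -2.19 ± 0.11 (limma, adjusted p = 3.2e-07). A region 86.0 kb from ACTR3, a subunit of the actin-nucleating Arp2/3 complex, went from 14.0 and 13.7 to 3.71 and 3.82. A region inside PLEKHA7, which encodes a protein of adherens junctions, went from 9.54 and 10.9 to 2.47 and 3.2. The 2 regions nearest to LAIR2, which encodes a soluble collagen receptor, included the tallest of the set, at 63.5 and 50.3 untreated and 17.5 and 15.5 with TWEAK. The remaining 5, nearest to CCDC97, OR1M1, CDC42BPA, CCNG1 and HAUS5, had log2 differences from -1.91 to -1.76. That untreated and TWEAK lists were apart in all 10 follows from their choice by the size of the fall.

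**Figure D1:**
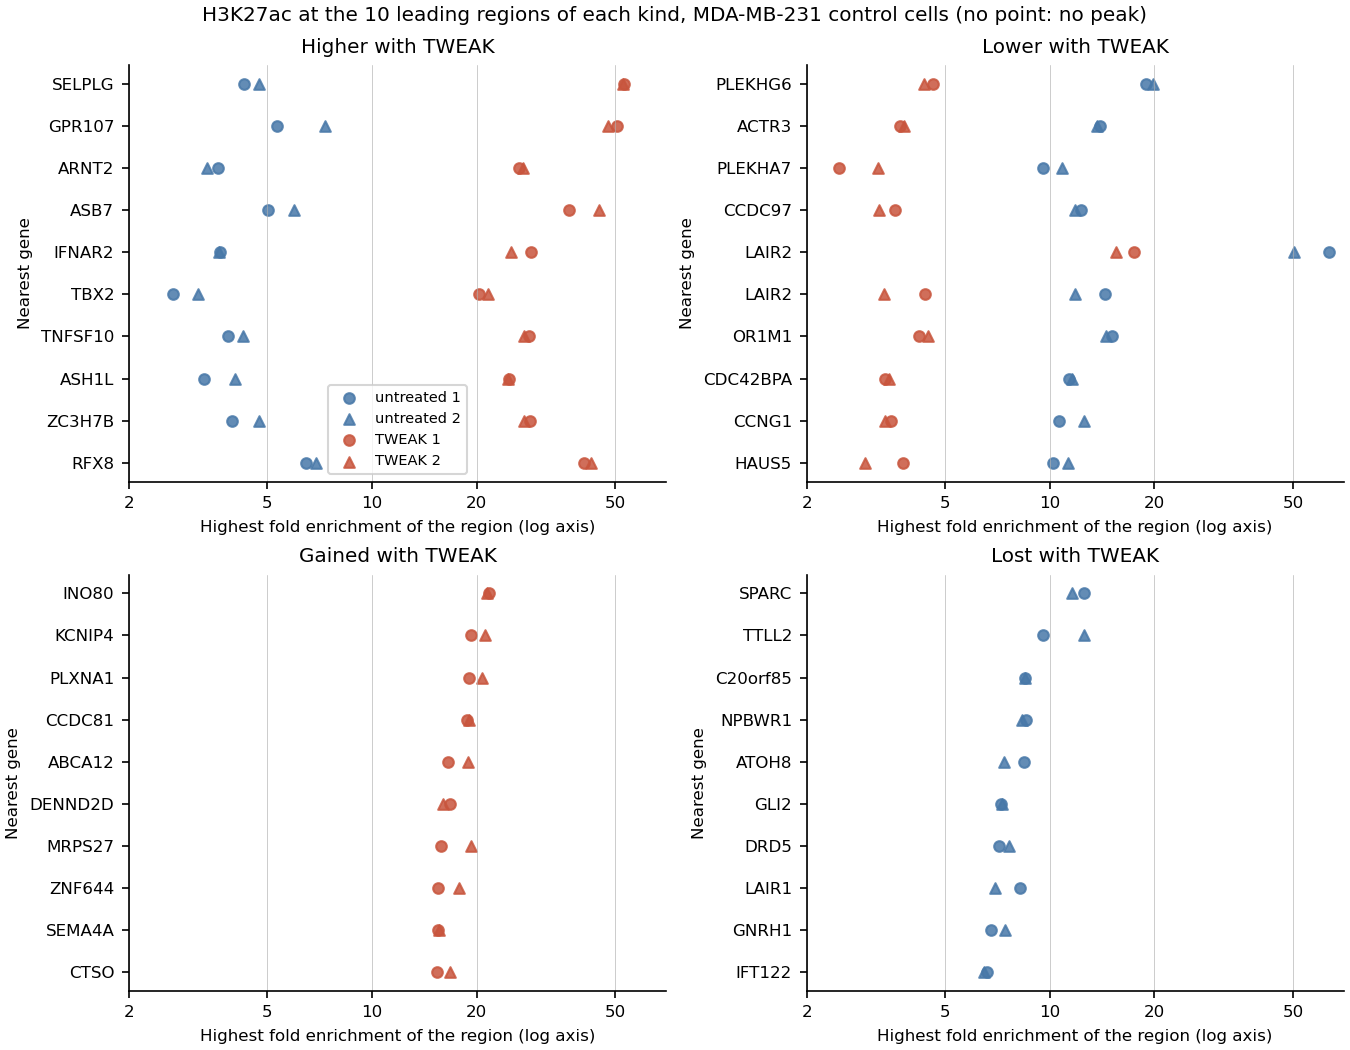
Fold enrichment (log axis) in each of the 4 lists at the 10 regions with the largest rise, the largest fall, and the highest values among gained and lost regions, labelled by nearest gene, with blue for untreated, red for TWEAK, circles for replicate 1 and triangles for replicate 2. Gained regions reach 21.5 in the lower of their 2 lists and lost regions 11.6, and SELPLG shows the widest gap between treatments.

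Gained regions were mostly weak, with a few strong ones. Read in the lower of its 2 TWEAK lists, a gained region had a median fold enrichment of 3.39 and a maximum of 21.5, and 758 of them (24.0%) had a −log10 q of at least 5. Lost regions were weaker, with a median of 3.09, a maximum of 11.6 and 232 (8.89%) at that level. A −log10 q below 2, near the calling threshold of about 1, was found for 749 gained (23.7%) and 1032 lost regions (39.6%). Just outside the rule lay 2224 regions that missed being gained through a single untreated peak, with a median −log10 q of 2.34 for that peak, and 1793 that missed being lost through a single TWEAK peak, with a median of 2.21. The counts rested on particular lists: without untreated replicate 2 the gained regions numbered 5156, without TWEAK replicate 1 they numbered 4936, and without untreated replicate 1 the lost regions numbered 5888, since the rule is easier to meet with 1 list in an arm. Pairs that took 1 list from each treatment were rarer than gained or lost regions. The 2 lists numbered 2 shared 638 regions that no other list had and those numbered 1 shared 57, while the pairs of unlike number shared 413 and 82.

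The gained region with the highest signal lay 43.8 kb from the start of INO80, the ATPase of a chromatin remodelling complex (chr15:41160063-41163006). Its fold enrichment was 21.7 and 21.5 in the TWEAK lists, and neither untreated list had a peak. Those nearest to KCNIP4, a potassium channel-interacting protein, and PLXNA1, a semaphorin receptor, measured 19.3 and 21.2, and 19.0 and 20.6. At a start of ABCA12, which encodes a lipid transporter, a gained region measured 16.5 and 18.8. The rest of the 10 lay near CCDC81, DENND2D, MRPS27, ZNF644, SEMA4A and CTSO, with at least 15.4 in each TWEAK list. No untreated control list had a peak at these 10 regions, but 9 of the 10 had a peak in at least 1 list of the untreated Fn14 KO cells, where the values did not exceed 4.46.

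The strongest lost region lay 6.40 kb from the start of SPARC, which encodes a collagen-binding matricellular protein (chr5:151693368-151695126). It measured 12.5 and 11.6 in the untreated lists and had no peak with TWEAK. A further lost region at a SPARC start measured 4.28 and 4.77. Next came regions near TTLL2 (9.57 and 12.5), C20orf85 (8.47 and 8.49) and NPBWR1 (8.56 and 8.31). Start-site regions of ATOH8, a bHLH factor, and LAIR1, an inhibitory collagen receptor, measured 8.42 and 7.38, and 8.19 and 6.97. GLI2, a transcription factor of Hedgehog signalling, had a lost region 175 kb away at 7.22 and 7.29. The other 3 lay near DRD5, GNRH1 and IFT122, with at least 6.48 in each untreated list.

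Gained and lost regions were narrow and distal, as were the 12143 regions with other combinations of lists. Those other regions had a median width of 610 bp, 10.7% of them were within 2 kb of a start site, and their median distance to a start was 24.5 kb. The median width was 875 bp for gained, 844 bp for lost and 1942 bp for retained regions, and of the 437 regions of at least 10 kb all were retained, 99 of them higher and 38 lower with TWEAK. A start site of a protein-coding transcript was within 2 kb for 5.67% of gained and 10.3% of lost regions, against 35.0% of retained and 26.1% of all regions. Gained regions lay inside genes in 49.2% and between genes in 45.2% of cases, and lost regions in 45.9% and 43.8%. The median distance to a start was 35.0 kb for gained, 29.0 kb for lost and 16.9 kb for all regions. The retained regions repeated this order, since 20.8% of those that rose, 28.9% of those that fell and 40.5% of those not called were at a start site.

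Changes of like direction lay near each other. Within 10 kb of a gained region there was a retained region that rose in 16.0% of cases and one that fell in 4.63%. For lost regions the order was the reverse, at 5.44% for rises and 18.1% for falls. Around retained regions the shares were 11.1% for rises and 11.0% for falls. With regions of one kind joined into runs where they lay at most 50 kb apart, 75.7% of gained and 75.5% of lost regions stood alone. There were 14 runs of at least 4 gained and 12 of at least 4 lost regions, with no background computed for runs. The run with most members, chosen after its values were seen, held 6 gained regions over 84.5 kb upstream of TNFAIP3 (chr6:137680701-137765229). TNFAIP3 encodes A20, a ubiquitin-editing enzyme that limits NF-κB signalling.

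Of the 17 regions that had TNFAIP3 as nearest gene at any distance, 10 were gained, 4 rose, 3 had other combinations of lists, and none was lost or fell. The start-site region measured 9.5 and 11.0 untreated and 18.8 and 16.2 with TWEAK, a log2 difference of 0.69 ± 0.11 (limma, adjusted p = 0.00056). The tallest distal region, 53.7 kb upstream, went from 9.23 and 9.54 to 22.6 and 21.3, a log2 difference of 1.14 ± 0.10. The gained ones were lower, between 2.68 and 6.23 in the TWEAK lists, so that the locus combined existing peaks that grew with small new ones. One near miss, 4.38 kb into the gene, measured 10.7 and 9.88 with TWEAK, 2.69 in untreated replicate 2 and had no peak in untreated replicate 1.

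**Figure D2:**
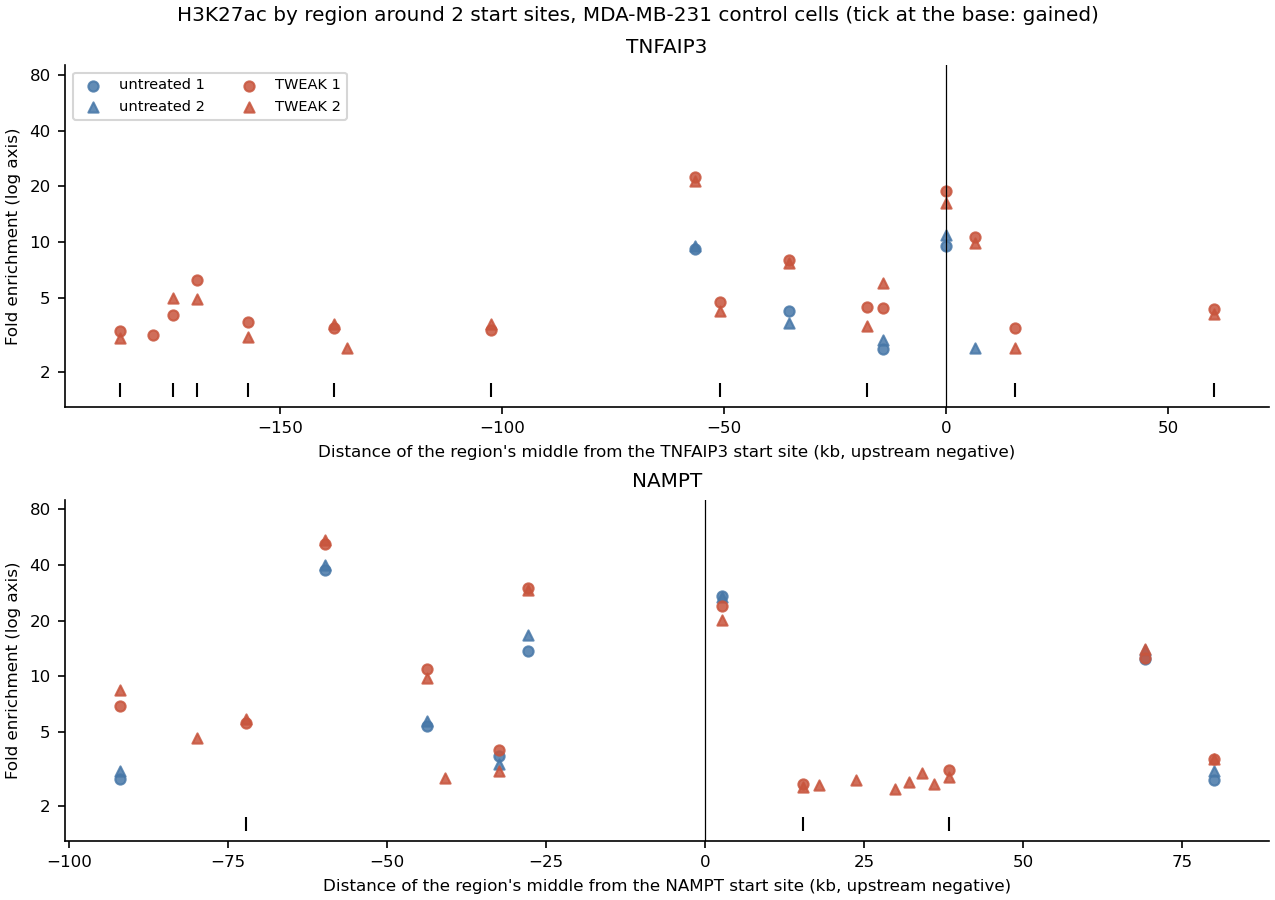
Fold enrichment (log axis) in each of the 4 lists against the distance of the region's middle from the start site in kb, upstream negative, for the regions nearest to TNFAIP3 and those within 100 kb of the NAMPT start, with colours and symbols for treatment and replicate and a tick at the base for gained regions. At TNFAIP3, 10 of 17 regions are gained, and at the NAMPT start the TWEAK values of 24.0 and 20.1 lie below the untreated values of 27 in both lists.

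Genes were then read by pathway. Of 19962 protein-coding genes, 1983 (9.93%) were the nearest gene, within 100 kb, of a gained region and 1693 (8.48%) of a lost region. Among 11746 genes with a retained region at a start site, that promoter rose in 1158 (9.86%) and fell in 1595 (13.6%). Of the 28288 retained regions within 100 kb of a start, 16.8% rose and 17.5% fell. These shares are the background for the lists that follow, which are described by counts with no set test, and a gene with more regions nearby has more chances to be named.

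Of 16 genes of proximal TWEAK signalling, 4 were nearest to a gained region (BIRC2, BIRC3, RIPK2 and TAB2) and 1 to a lost region (TAB2). Of their 48 retained regions 20 rose and 3 fell, and of 15 promoters tested 6 rose, none fell and 9 were not called. At TRAF2, the adaptor that links the receptor to the ubiquitin ligases, the promoter went from 7.66 and 8.90 to 21.9 and 23.9, a log2 difference of 1.39 ± 0.09 (limma, adjusted p = 2.4e-06). TRAF3, which holds the kinase NIK in check, went from 4.65 and 6.13 to 10.3 and 10.5. TRAF1 went from 14.2 and 17.4 to 24.7 and 26, and BIRC3 from 7.53 and 8.36 to 11.9 and 11.9. These 4 promoters are named because they passed the test, so the gap between their treatments follows from that choice. RIPK2, a kinase of innate immune signalling, had a tall gained region 67.6 kb away at 14.1 and 15.8. At TNFRSF12A itself the start-site region did not pass the test, with 35.3 and 35.1 untreated and 35.9 and 38.2 with TWEAK, a log2 difference of -0.01. The nearby IL32 start, 47.1 kb downstream, gained a region of 7.59 and 7.60.

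Of 11 genes of feedback inhibitors of NF-κB signalling, 3 (TNFAIP3, TNIP1 and CYLD) were nearest to 7 gained regions and none to a lost one, and 20 of their 34 retained regions rose while 6 fell. Of the 11 promoters 5 rose and 1 fell. The promoter of ZC3H12A, which encodes the RNase Regnase-1, went from 13.2 and 17.3 to 36.9 and 39.3, a log2 difference of 1.25 ± 0.10 (limma, adjusted p = 8.3e-06). The promoter region of TNIP1, a partner of A20, went from 38.1 and 44 to 71.0 and 72.5, while a lower region 0.319 kb from another of its starts fell from 8.06 and 9.92 to 7.33 and 6.50. NFKBIZ, an atypical inhibitor of nuclear NF-κB, went from 11.1 and 11.7 to 17.4 and 18.4, and CYLD, a deubiquitinase, from 7.67 and 7.46 to 10.9 and 12.5. The promoter that fell was that of BCL3, which went from 30.8 and 29.5 to 22 and 21.8, a log2 difference of -0.54 ± 0.11. Of the 5 subunit genes, NFKB1 had 2 gained regions in its body, the taller at 6.35 and 7.89. The promoters of RELA and NFKB2 rose by log2 differences of 0.43 and 0.38 and that of REL fell by 0.29, but these calls held in 8, 8 and 6 of 10 alternative settings.

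Chemokine and cytokine genes were near gained and seldom near lost regions. Of 17 chemokine genes, 6 were nearest to a gained region (CXCL1, CXCL2, CXCL6, CXCL8, CXCL11 and CCL5) and none to a lost one. Of their 20 retained regions 9 rose and 4 fell. CCL5, a T-cell attractant, had 3 gained regions, at its start (4.23 and 5.64) and at 8.76 kb (9.65 and 10.3) and 11.1 kb from it (4.93 and 4.69). CXCL11 gained its start-site region at 5.03 and 5.10. In the neutrophil chemokine cluster a region 11.7 kb from CXCL8 went from 4.71 and 5.49 to 14.1 and 16.9, a log2 difference of 1.52 ± 0.11, and a region 27.5 kb from CXCL2 was gained at 8.18 and 7.70. Of 5 promoters tested in the list, the 1 that rose was that of CXCL3, and the 1 that fell was that of CX3CL1.

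Of 20 cytokine genes, 10 were nearest to a gained region and 1 to a lost region, and with a limit of 50 kb the gained count was 6. Of their 58 retained regions 19 rose and 9 fell. IL32, at its start, measured 7.59 and 7.60 with TWEAK. CSF2, the gene of GM-CSF, had 3 gained regions between 3.0 and 5.21, and a retained region 11.3 kb away went from 9.85 and 9.59 to 19.4 and 19.9. Between IL1A and IL1B a region 22.9 kb from IL1B went from 12.2 and 13.2 to 34.5 and 35.9, a log2 difference of 1.39 ± 0.09, while IL1A gained a start-site region at 3.69 and 2.97. The IL7 promoter rose from 3.40 and 3.63 to 7.64 and 7.12 and that of CSF1 from 6.29 and 7.39 to 12.9 and 11.5. The IL6 promoter measured 13.9 and 14.8 untreated and 18.4 and 18.6 with TWEAK, a call that held in 6 of 10 alternative settings. In the other direction, the promoter of IL11 fell from 6.55 and 6.89 to 4.76 and 4.48. The list therefore moved both ways at promoters, with 3 that rose and 4 that fell of 14 tested.

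**Figure D3:**
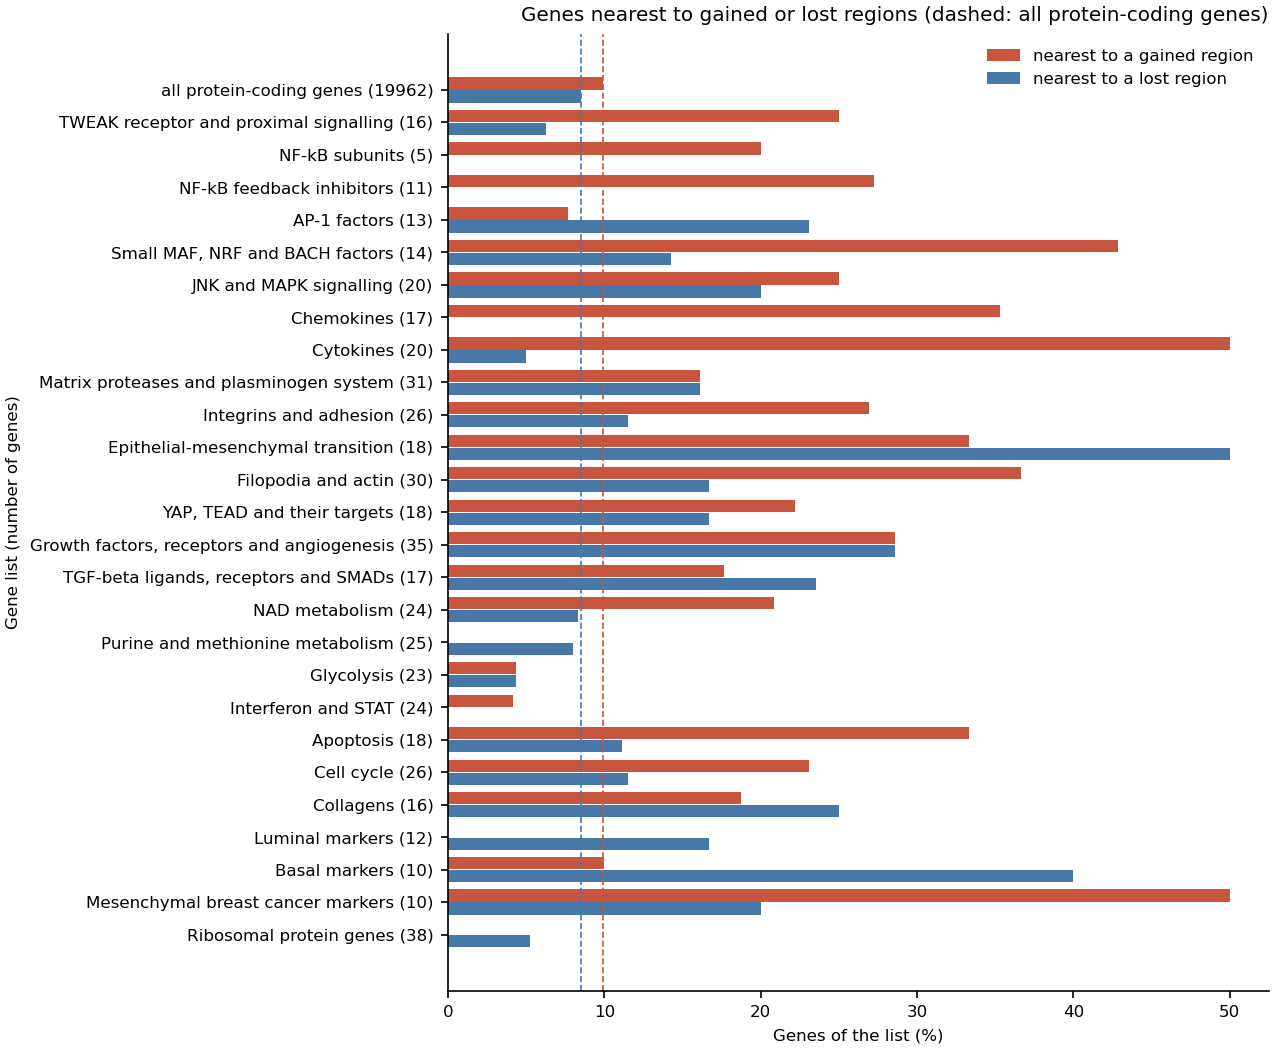
Share of the genes of each list that were nearest, within 100 kb, to a gained (red) or a lost (blue) region, with the number of genes of each list in parentheses and dashed lines at the shares of all protein-coding genes (9.93% and 8.48%). Cytokines reach 50% for gained and epithelial-mesenchymal transition genes 50% for lost regions, and no chemokine gene is nearest to a lost region.

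Of 18 apoptosis genes 6 were nearest to 10 gained regions and 2 (BBC3 and PMAIP1) to a lost region, and 19 of their 50 retained regions rose while 5 fell. Of 16 promoters 4 rose and 2 fell, those of MCL1 and CASP8, calls that held in 5 of 10 alternative settings. BCL2A1, an antiapoptotic target of NF-κB, had 3 gained regions, the tallest at 13.2 and 14.6. The TRAIL receptor promoter of TNFRSF10B went from 12.3 and 12.9 to 19.1 and 20. Of 24 interferon and STAT genes only IRF4 was nearest to a gained region, but 13 of their 47 retained regions rose and 3 fell. The promoter of IRF1, an interferon regulatory factor, went from 15.5 and 17.9 to 26.9 and 28.6, a log2 difference of 0.65 ± 0.09.

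Of 13 AP-1 genes 1 was nearest to a gained region (FOSL2) and 3 to a lost one (BATF3, FOSL2 and JUNB), and 12 of their 42 retained regions fell while 8 rose, a list moving both ways. The FOS promoter went from 24.5 and 25.9 to 13.9 and 14.2, a log2 difference of -0.93 ± 0.09 (limma, adjusted p = 3.2e-05). The FOSL1 promoter, the gene of the FOS family member FRA-1, rose from 23.5 and 26.5 to 36.3 and 37.2, and this call held in 8 of 10 alternative settings. Small MAF, NRF and BACH genes are linked to the antioxidant response, not all in the same direction. Of the 14 in this list, 6 were nearest to a gained region and 2 to a lost one. The BACH1 promoter went from 13.5 and 13.9 to 28.1 and 31.7, whereas the MAFG promoter region measured 31.0 and 23.4 untreated and 31.6 and 30.5 with TWEAK and did not pass the test. In the JNK and MAPK list 5 of 20 genes were nearest to a gained and 4 to a lost region. DUSP16, a phosphatase of JNK, had 3 gained regions, the tallest at 5.72 and 7.05.

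Adhesion and protease genes split. ICAM1, a leukocyte adhesion receptor, rose at its promoter from 4.96 and 5.13 to 12.2 and 12.2, a log2 difference of 1.20 ± 0.11 (limma, adjusted p = 2.1e-05), and gained a region 5.01 kb away at 4.46 and 4.76. CD44, a hyaluronan receptor, rose from 9.94 and 8.48 to 14.5 and 15.2. The promoters of ITGB3, ITGB4, ITGB5 and ITGB8 fell, with log2 differences from -0.83 to -0.57. Of 26 integrin and adhesion genes 7 were nearest to a gained region and 3, the cadherin genes CDH1, CDH2 and CDH4, to a lost one. ITGAV gained a region 34.5 kb upstream at 3.2 and 3.22. A taller region 45.7 kb upstream of its start, to which ZC3H15 is the nearest gene at 35.5 kb, rose from 17.1 and 20.3 to 39.9 and 39.4, while its promoter measured 10.9 and 13.4 untreated and 10.6 and 12 with TWEAK and did not pass the test. In the protease list 5 of 31 genes were nearest to a gained and 5 to a lost region. MMP9, a gelatinase, gained a region 0.24 kb from its start at 4.60 and 6.08, and SERPINB2, a plasminogen activator inhibitor, rose at its promoter from 7.13 and 8.57 to 17.0 and 19.2.

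Epithelial-mesenchymal transition genes were nearest to lost regions in 9 of 18 cases, with 15 lost regions in all, and to gained regions in 6 cases. The FN1 promoter, of the fibronectin gene, fell from 15.8 and 17.2 to 9.95 and 9.68, a log2 difference of -0.83 ± 0.10 (limma, adjusted p = 8.1e-05), and 2 regions inside the gene were lost. SNAI2, an EMT transcription factor, had 3 lost regions, the tallest at 4.32 and 4.49. The genes of this list that gained regions were mostly transcription factor genes (PRRX1, TWIST1, ZEB1 and ZEB2), all at 31.0 kb or more from a start. Of the 6 genes with gained regions, 3 (TWIST1, ZEB2 and TGM2) were nearest to a lost region as well. Among collagen genes 6 of 11 promoters tested fell and 2 rose. COL1A1 fell from 10.7 and 12.9 to 8.34 and 7.62 and COL18A1 from 7.04 and 6.95 to 4.47 and 4.42, and COL5A1 lay beside a run of 5 lost regions.

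Filopodia and actin genes had gained regions at 11 of 30 genes and lost regions at 5, with both kinds at 2 (PALLD and ACTN1). Those with gained regions included CDC42, RAC1, FSCN1, which encodes fascin, and MYO10, a filopodial motor. MYO10 gained a region 0.351 kb from a start at 3.50 and 4.45. Yet 46 of the 166 retained regions of this list fell while 23 rose, and 8 of 27 promoters fell while 4 rose. TIAM1, an exchange factor of RAC1, had 5 lost regions and no gained one. The related TIAM2 fell at its promoter from 19.8 and 18.4 to 10.4 and 10.5. FMNL1, a formin, rose from 18.3 and 19.6 to 34.6 and 35.9, and BAIAP2, a membrane-bending adaptor of filopodia, fell from 22.5 and 26.4 to 17.5 and 16.5.

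Growth factor and receptor genes were near gained and lost regions equally often, 10 of 35 genes each, but 7 promoters rose and 1 fell. FGFR1 rose from 3.74 and 5.06 to 14.7 and 14.9, a log2 difference of 1.69 ± 0.12 (limma, adjusted p = 3.2e-06). VEGFC, a lymphatic growth factor, rose from 11.7 and 14.9 to 25.5 and 26, and EGFR gained a region 41.5 kb away at 5.14 and 6.66. Among the TGF-β genes 3 of 17 were nearest to a gained and 4 to a lost region, and the TGFB3 promoter fell from 10.1 and 12.4 to 8.16 and 7.78. Of 18 YAP and TEAD genes 4 were nearest to a gained region, the tallest near NUAK2 at 11.9 and 10.5, and 3 to a lost one.

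Among metabolic genes, NAMPT, the rate-limiting enzyme of NAD salvage, was nearest to 3 gained regions. Its promoter region measured 27 in both untreated lists and 24.0 and 20.1 with TWEAK, a log2 difference of -0.38 ± 0.12 (limma, adjusted p = 0.028), and this call was lost in 3 of 10 alternative settings. Upstream of it, 4 retained regions rose and 1 did not pass the test. A region 27.8 kb upstream went from 13.8 and 16.8 to 30.0 and 29.2, a log2 difference of 0.88 ± 0.10, and a region 43.7 kb upstream from 5.39 and 5.75 to 10.9 and 9.80, a log2 difference of 0.81 ± 0.12. The tallest, 59.8 kb upstream, went from 37.4 and 39.7 to 51.6 and 54.1, a log2 difference of 0.37 ± 0.11 whose call was lost in 3 of 10 alternative settings. The region that did not pass, 32.3 kb upstream, measured 3.70 and 3.37 untreated and 4.01 and 3.09 with TWEAK. The one 92.0 kb upstream went from 2.80 and 3.10 to 6.94 and 8.42, and 72.2 kb upstream a region was gained at 5.62 and 5.92. Over their whole length, the regions 27.8, 59.8 and 72.2 kb upstream held no NF-κB match, nor did the gained regions downstream of the start. The region 92.0 kb upstream held 1 NF-κB match and that 43.7 kb upstream held 2. AP-1 matches numbered 6 in the region 59.8 kb upstream and 3 in that 43.7 kb upstream. The regions 27.8, 72.2 and 92.0 kb upstream held none. The NF-κB match below, from the region 43.7 kb upstream, is shown because the study singled out this locus. It does not stand for the other regions.
NAMPT upstream region, chr7:106330043-106330102, + strand: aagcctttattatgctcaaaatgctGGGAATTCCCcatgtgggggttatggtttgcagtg

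Of 24 NAD genes in all, 5 were nearest to a gained region (NAMPT, NMNAT2, BST1, TDO2 and NADSYN1). Lost regions lay nearest to 2 (NMNAT2 and NT5E), so NMNAT2 had both kinds. Of the 49 retained regions of the 24 genes, 14 rose and 4 fell. BST1, an NAD-consuming enzyme, gained a region 1.32 kb from its start at 6.37 and 6.79. None of 25 purine and methionine genes was nearest to a gained region and 2 were nearest to a lost one (MTHFD1L and HPRT1). Of 23 glycolysis genes, 1 was nearest to a gained region (PFKFB3) and 1 to a lost one (HK2). The promoter of SLC2A1, the main glucose transporter, fell from 18.0 and 18.0 to 10.8 and 10.6, while that of PKM, pyruvate kinase, rose from 13.8 and 15.5 to 23.1 and 24.2. Of the 26 cell cycle genes 6 were nearest to a gained and 3 to a lost region, and KIF18A, a mitotic kinesin that shares its promoter with METTL15, measured 13.8 and 14.2 untreated and 11.1 and 11.2 with TWEAK, a log2 difference of -0.41 ± 0.10. The 38 ribosomal protein genes, as a housekeeping set, had no gained region, and 2 of them were nearest to a lost one. TNFSF12, the gene of TWEAK, lost a small region at its start of 3.85 and 3.61.

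The genes with most gained regions within 100 kb were ARHGAP26, a GTPase activating protein, with 6, and FRMD4A, PDE4DIP and SBF2 with 5 each. DOCK4, PRAG1, SNX5 and TIAM1 had 5 lost regions each. ARHGAP26 combined its 6 gained with 11 rises and 1 fall among 25 retained regions. SBF2 had 5 gained regions and no rise among its 11 retained regions, so the 2 measures did not always move together at a gene.

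Motifs were counted on both strands in the 500 bp at the middle of each region. The NF-κB motif was found in 27.6% of gained, 14.4% of retained, 8.66% of lost and 14.2% of all regions. Since promoters are rich in G and C, the count was repeated on regions at least 2 kb from a start, where the shares were 27.1% for gained, 14.6% for regions that rose, 9.62% for those not called, 8.75% for those that fell, 7.90% for lost and 11.6% for all regions. In this window the order from gained to lost thus ran with the direction of the change. As motifs per kb over whole distal regions it did not hold throughout, with 0.228 for those that fell and 0.220 for those not called. The distal gained regions had a median GC content of 42.4%, against 43.8% in all distal regions. The AP-1 motif TGANTCA was found in 45.4% of gained, 40% of lost and 36.4% of all regions, and away from starts in 46.0% of gained, 41.7% of lost and 44.5% of all distal regions. The MAF element TGCTGANTC, which holds an AP-1 motif where an A follows it, was found in 4.74%, 4.08% and 4.56% of gained, lost and all distal regions and, with start sites included, in 4.79%, 4.18% and 3.85%, and the TEAD motif GGAATG in 32.2%, 34.2% and 32.1% of distal regions. Over the distal regions of each class these 3 motifs ranged from 41.7% to 46.1%, from 4.01% to 5.13% and from 32.0% to 34.2%. Over the whole length of the regions, all 10 that rose most and 8 of the 10 leading gained regions held an NF-κB match, as did 5 of the 10 that fell most and 1 of the 10 leading lost regions. INO80 and ABCA12 were the 2 leading gained regions without one. In the middle 500 bp the NF-κB counts, in the same order, were 3, 7, 0 and 1 of 10. An AP-1 match over the whole length was held by 8, 7, 3 and 6 of 10. A match describes letters in a window, longer regions hold more of them, and no whole-length share was computed for all regions.

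**Figure D4:**
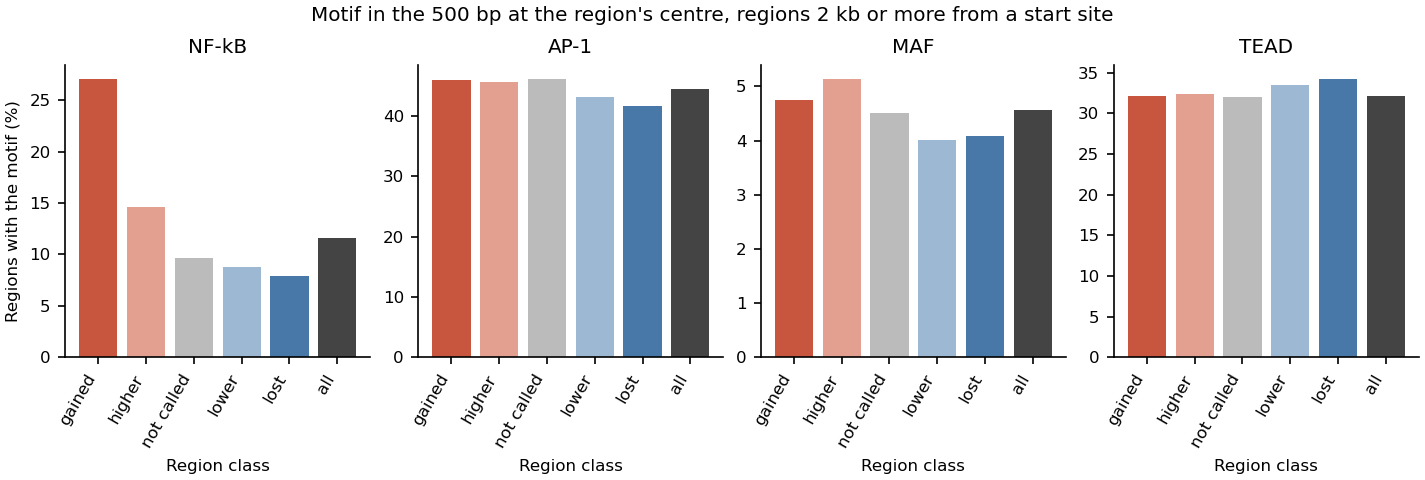
Percent of regions at least 2 kb from a start site whose middle 500 bp holds each of 4 motifs, for gained regions, retained regions that rose, were not called or fell, lost regions and all regions. The NF-κB share falls from 27.1% in gained to 7.90% in lost regions, and the AP-1 share lies between 41.7% and 46.1% in every class.

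Cells without the receptor were compared next. In Fn14 KO cells the regions that rose in control cells had a median log2 change of -0.04 (39.2% above 0, 5525 regions with all 4 peaks), and those that fell had a median of -0.03. At SELPLG the 4 KO lists measured 4.70 and 5.09 untreated and 5.97 and 4.31 with TWEAK. At PLEKHG6 they measured 8.41 and 5.95 untreated and 7.28 and 5.93 with TWEAK. Neither region separated the treatments in KO cells. The difference of the changes was tested by the limma interaction over 30629 regions: the change was more positive in control cells at 3628 (11.8%) and more negative at 3179 (10.4%), and 6457 of these 6807 regions were called in control cells as well. Without centring these counts were 3924 and 1136, without TWEAK replicate 2 of the control cells the second was 2006 and without untreated replicate 1 it was 2085. Across regions the 2 changes had a Pearson's r of 0.01. The KO lists had lower peaks, with a median −log10 q of 5.79 to 7.69 against 9.44 to 10.8 in control lists, and the part of this in the difference was not tested.

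In Hs578T control cells the same regions moved the same way. Where MDA-MB-231 control cells rose, the median log2 change in Hs578T was 0.45 (96.7% above 0, 5618 regions), against 0.57 in MDA-MB-231, and where they fell it was -0.42 (4.36% above 0). Across 31262 regions r was 0.85. SELPLG went from 4.04 and 3.09 to 28.2 and 26.9 in Hs578T, and PLEKHG6 from 14.8 and 14.8 to 4.07 and 4.27. With Hs578T the interaction passed the threshold at 10 regions more positive in MDA-MB-231 (0.0320%) and 8 more negative (0.0256%), of which 5 were called in MDA-MB-231. These counts rested on single lists, and with 1 list left out ranged from 6 to 33 and from 1 to 16. Without adjustment 2322 of the 31262 had p below 0.05, so a p that misses the threshold does not show that the lines changed alike. A region 21.3 kb from SERPINA6 rose by a log2 difference of 2.42 in MDA-MB-231 and 1.3 in Hs578T, and one 51.3 kb from MUSK by 0.59 and 2.07.

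**Figure D5:**
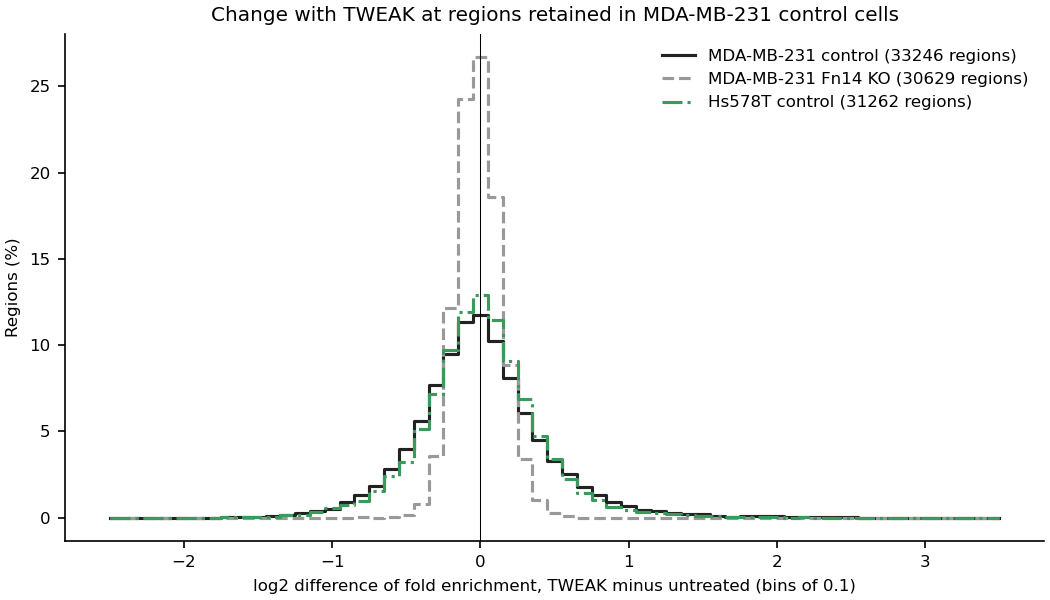
Percent of retained regions in bins of 0.1 of the log2 difference of fold enrichment, TWEAK minus untreated, for MDA-MB-231 control (33246 regions), MDA-MB-231 Fn14 KO (30629) and Hs578T control cells (31262). The Fn14 KO curve is the narrowest, and the curves of both control lines are broad with a longer arm to the right in MDA-MB-231, which reaches 3.47.

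The strength of a gained region went with its presence in the other line. Of the 789 strongest gained regions, with 4.14 to 21.5 in the lower TWEAK list, 96.3% had a peak in each Hs578T TWEAK list and 28.1% and 19.3% in the untreated Hs578T lists. Of the 789 weakest, with at most 2.99, 66.5% and 72.0% had a peak in the Hs578T TWEAK lists. In the KO cells the strongest were found in 38.5% and 21.8% of untreated and 23.7% and 26.7% of TWEAK lists. The strongest 652 lost regions kept a peak in 76.4% and 67.3% of KO lists with TWEAK, and in 29.1% and 43.6% of Hs578T TWEAK lists. A missing peak means only that the authors' threshold was not passed.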

How the data were processed

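H3K27ac ChIP-seq of MDA-MB-231 control cells, with MDA-MB-231 Fn14 KO and Hs578T control cells for comparison, was read from 1 deposited list of broad peaks per sample. According to the study's methods the authors used Trimmomatic for trimming, Bowtie2 for alignment to hg38, MACS2 for peaks over input and bedtools for removal of blacklisted regions, without stated versions. Chromatin had been sheared to 200 to 500 bp. The deposited ratio is the fold enrichment of a peak over its local background, and the deposited −log10 q-value is that of the same peak. The authors also deposited a score and a −log10 p-value, which were not used. Without reads DiffBind could not be run and depth is unknown, so that a region near the threshold may be listed in 1 sample and missed in another.

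The 4 control lists were merged at a minimum overlap of 1 bp, and a region took the highest fold enrichment of its peaks in each list. Regions with a peak in all lists compared were tested with limma 3.58.1 in R 4.3.3 (lmFit, eBayes with trend) on log2 values centred on each list's median, with Benjamini-Hochberg adjustment over all regions tested and a threshold of 0.05, and differences from the other cells as interaction terms. With 2 lists against 2 an exact permutation test of a single value cannot go below 0.333, so gained and lost regions were counted and not tested. Replicates are biological per the study's methods, but the labels do not tie them to cultures, so p-values measure the spread between these samples. The replicate numbers shared by the treatments did not pair the lists (r of replicate 1 minus 2 between treatments was 0.08). The annotation was GENCODE 44, protein-coding genes, with start sites within 2 kb, nearest genes within 100 kb, and coordinates are 1-based. Sequences are from the hg38 reference, read with pysam 0.24.0. A promoter is the retained region with the highest mean level within 2 kb of a start of the gene. Promoters shared by neighbouring genes count for each.

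Named were list genes nearest to a gained or lost region or with a called promoter, the 10 genes with most gained and lost regions, the 10 leading regions of each kind, and loci the study singled out. The members and lists were chosen with earlier results of these data known. Alternatives changed the overlap, merging distance, peak threshold, centring, measure, gene assignment, motif window and each list in turn.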

Additional observations from a re-analysis of the deposited data

Results flagged for a closer look

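The response to TWEAK in MDA-MB-231 control cells differed from that in Fn14 KO cells, by the limma interaction term, at 6807 of 30629 regions, 3628 with the more positive change in control cells and 3179 with the more negative one. At SELPLG the log2 change was 3.47 in control and 0.10 in Fn14 KO cells, and at PLEKHG6 it was -2.19 and -0.05.

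Between MDA-MB-231 and Hs578T control cells the same test passed at 18 of 31262 regions, 10 with the more positive change in MDA-MB-231. Near SERPINA6 the log2 change was 2.42 in MDA-MB-231 and 1.3 in Hs578T, near CCNG1 -1.83 and -0.60, and near HMGA2 0.23 and 1.77. The region near PHLDA1 measured 24.1 and 27.5 in untreated and 3.14 and 3.38 in TWEAK lists of Hs578T, and 3.45, 3.95, 2.72 and 3.64 in the MDA-MB-231 control lists.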

How the results depend on the processing

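Leaving out 1 list makes the rule easier to meet, and gained regions then numbered 3406 to 5156 (4936 without TWEAK replicate 1, 5156 without untreated replicate 2) and lost regions 3469 to 5888 (5888 without untreated replicate 1), against 3155 and 2609. Retained regions that rose numbered 4172 to 6210 and those that fell 3969 to 5921 with 1 list left out, where the lone list is assumed to vary like the other pair. Without centring 3871 fell, and at 1136 regions the change was more negative than in Fn14 KO cells, against 3179. With 1 list left out, the change was more positive than in Fn14 KO cells at 2571 to 3239 and more negative at 2006 to 2790 regions, the lowest of the latter being 2006 without TWEAK replicate 2 and 2085 without untreated replicate 1. The few differences from Hs578T cells moved most, from 6 to 33 (more positive) and from 1 to 16 (more negative) with 1 list left out, the highest being 33 without Hs578T untreated replicate 1, 21 and 16 without Hs578T untreated replicate 2, and the lowest 6 and 3 without MDA-MB-231 untreated replicate 2 and 1 without MDA-MB-231 untreated replicate 1 or TWEAK replicate 1, with 5 more negative without Hs578T TWEAK replicate 1. They were 6 and 4 for peaks with a −log10 q of at least 2, with 5 more negative on the −log10 q scale. Start sites taken within 1 kb held 3.77% of gained and 8.16% of lost regions. Counting every gene with a start within 50 kb raised the genes near lost regions from 1693 to 2711. The NF-κB share in gained regions was 1.95 times that in all regions, 2.18 times in windows of 300 bp and 1.76 times as motifs per kb. For the AP-1 motif these ratios were 1.25, 1.33 and 1.45, and for the MAF element 1.24, 1.22 and 1.70.

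For the MAF element the share in lost regions was 1.08 times that in all regions and 0.995 times in windows of 300 bp. Of 128 called list promoters, 65 kept their call in every setting. The CCN2 promoter, higher by 0.52, was at -0.20 with the length-weighted mean (adjusted p = 0.217, limma), and the TNC promoter, lower by 0.63, was at 0.16 without TWEAK replicate 2 (adjusted p = 0.567) and at -0.87 without TWEAK replicate 1. The cause of these changes was not tested. With the replicate number as a block, whose numbers correlated at only 0.08, 6446 regions rose and 6654 fell, against 5857 and 5942. The blocked counts were 3647 and 3238 for Fn14 KO and 10 and 10 for Hs578T, and no blocked count moved by over 1.5 times. The unknown depth limits what a missing peak means, most of all for the gained (23.7%) and lost regions (39.6%) with a −log10 q below 2.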

Other observations

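At 2 of the regions that separated Hs578T from MDA-MB-231, the replicates of the Fn14 KO cells were unlike. Near PHLDA1 the untreated Fn14 KO lists measured 21.3 and 3.10, and the TWEAK lists 3.70 and 3.14. Near DAZAP1 the Fn14 KO lists numbered 1 measured 13.0 untreated and 11.4 with TWEAK, and those numbered 2 had no peak, while the Hs578T lists measured 12.5 and 11.3 untreated and 2.87 and 3.09 with TWEAK. Both regions were chosen after their values were seen.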
